A study of Mus musculus with 2 samples.

Results

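The 9 genes described here, Odc1, Amd1, Srm, Sms, Sat1, Smox, Oaz1, Oaz2 and Azin1, encode the enzymes that make and break down polyamines and the proteins that control the first of these enzymes. They were taken by name from a count table of 34745 mouse genes, and all 9 were found in it and had enough counts to be compared. The table holds 2 RNA sequencing libraries of whole gastrocnemius muscle from C57BL/6 mice aged 8 weeks. In 1 library the mice were CIPC-scko, read from the series title as a deletion of Cipc in satellite cells, the stem cells of muscle. In the other they were CIPC-flox/flox, which carry a Cipc gene flanked by loxP sites. The labels name neither the Cre driver nor the number of animals behind a library, and they do not mention mdx, the dystrophic strain in the series title. With a single library of each genotype, no test between genotypes was possible. The values compare these libraries, and the brackets beside a log2 ratio of scKO over flox/flox are 95% intervals for counting error only.

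Polyamines are small, positively charged molecules that bind RNA and support translation and growth. Ornithine decarboxylase (Odc1) turns ornithine into putrescine. S-adenosylmethionine decarboxylase (Amd1) makes the donor of aminopropyl groups that spermidine synthase (Srm) and spermine synthase (Sms) add in turn. Spermine oxidase (Smox) converts spermine back to spermidine, and the acetyltransferase Sat1 marks spermidine and spermine for export or oxidation. Antizymes (Oaz1, Oaz2) bind ornithine decarboxylase and deliver it to the proteasome, and the antizyme inhibitor Azin1, a relative of ornithine decarboxylase with no activity of its own, binds antizymes and frees the enzyme. In mouse muscle, Smox is known as a gene whose RNA is reduced in atrophy.

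Full-length antizyme is made only when the ribosome skips a base at a stop codon inside the message, a step that polyamines promote. The stretch around this stop codon is shown because a retrotransposed copy of Oaz1 carries the same letters, and the counts of the gene and the copy have to be read together. The sequences were read 5′ to 3′ from GENCODE M21 transcripts on GRCm38, and capitals mark the stop codon of the first reading frame, whose T is the skipped base.
Oaz1, plus strand, chr10:80828280-80828312: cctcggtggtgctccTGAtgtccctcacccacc
Oaz1-ps, minus strand, chr17:17345919-17345951: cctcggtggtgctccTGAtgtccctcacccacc
Oaz2, plus strand, chr9:65686257-65686289: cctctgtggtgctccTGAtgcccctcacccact
The Oaz1-ps window differed from that of Oaz1 at 0 of its 33 bases. Amd1 has copies that are as close. The coding sequence of Amd1 has 1005 bases including its stop codon. Amd2, an intronless protein-coding copy on chromosome 10, differed from it at 1 base, and the processed pseudogene Amd-ps3 also at 1 base. Amd-ps4 differed at 3 aligned bases and Amd-ps1 at 31. The 61 bases around the position where Amd2 differs are shown in the same way, with the differing base in capitals.
Amd1, minus strand, chr10:40290156-40290216: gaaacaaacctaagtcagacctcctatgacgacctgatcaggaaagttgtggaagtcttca
Amd2, minus strand, chr10:35710734-35710794: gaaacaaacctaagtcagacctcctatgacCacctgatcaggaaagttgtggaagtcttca
Amd-ps1, plus strand, chrX:155155949-155156009: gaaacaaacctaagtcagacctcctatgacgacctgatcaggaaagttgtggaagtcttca
A read from this window matches Amd1 and Amd-ps1 equally, and one that does not cover the base in capitals also matches Amd2. The window of Amd-ps3 is not shown. How such reads were counted is not given in the sources used here.

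The libraries held 13842100 counts (scKO) and 14727219 counts (flox/flox). Cipc, the targeted gene, had 111 counts in scKO and 658 in flox/flox, a log2 ratio of -2.51 (-2.82 to -2.22). This difference is that of whole muscle, and which of its cells account for it was not tested. Muscle fibre markers were at the top of both libraries, with Acta1 at 17196 and 17518 FPKM and Ckm at 13117 and 13493 FPKM. All 5 fibre markers had intervals that excluded 0: Tnnt3 (-0.28), Myh4 (-0.16), Ckm (-0.079) and Acta1 (-0.065) were below it and Myh1 (0.27) above. Among markers of other cells, those of fibro-adipogenic progenitors were lower in scKO, with a summed level of 371 and 454 CPM (counts relative to the scaled library size) over 4 genes and 3 of 4 intervals below 0. Red blood cell markers were lower too, at 86.6 and 112 CPM over 3 genes, all 3 below. The satellite cell markers Pax7, Myf5, Cdh15 and Chodl summed to 29.0 and 27.1 CPM, a sum to which Cdh15 gave the most counts (230 and 211). Pax7 alone was below 0, with 39 counts in scKO and 69 in flox/flox (-0.76, -1.38 to -0.19). The other 3 had ratios above 0 with intervals that included it. In endothelium, 2 of 4 intervals were above 0 (229 and 197 CPM), and in smooth muscle 1 of 3 (83.2 and 74.7 CPM). None of the macrophage markers (4 genes; 15.8 and 14.9 CPM), adipocyte markers (3 genes; 25.3 and 23.7 CPM) or the single tested tendon marker had an interval that left 0. The part of these cell types in the results below was not tested, and in whole muscle fewer cells of a type and less RNA per cell cannot be told apart.

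Amd1 dominated the 9 genes. On the deposited FPKM scale, which divides counts by a length for each gene, it took 64.2% of their summed level in scKO and 70.8% in flox/flox. Counts and FPKM of Oaz1 and Sat1 imply lengths greater than the spans of these genes. The share, order and folds between genes are therefore those of the deposited values and may differ from the order of RNA levels. In scKO the order was Amd1 (240 FPKM), Odc1 (58.6), Smox (32.8), Oaz2 (12.7), Oaz1 (9.90), Sms (8.78), Sat1 (4.37), Azin1 (3.63) and Srm (2.87). In flox/flox it was Amd1 (341 FPKM), Odc1 (56.8), Smox (39.1), Oaz2 (13.5), Oaz1 (11.0), Sms (9.34), Azin1 (4.53), Sat1 (3.91) and Srm (2.80). The order was therefore alike except that Sat1 and Azin1 changed places. The place of Oaz1 is uncertain, because its near-identical copy Oaz1-ps was listed at 113 FPKM in scKO and 122 FPKM in flox/flox, above Odc1. In counts the copy stood much nearer the gene, at 1.445 counts for each Oaz1 count in scKO and 1.405 in flox/flox. Most of the gap in FPKM thus comes from the different lengths that FPKM implies for gene and copy. Amd-ps3, a near-identical copy of Amd1 whose implied length also exceeds its span, was listed at 141 FPKM in scKO and 228 in flox/flox. The level and share of Amd1 therefore also depend on how reads were split. The counting intervals of neighbours overlapped for Oaz1 and Sms in scKO, and for Sat1 and Azin1 and for the last 2 genes of the order in both libraries. Amd1 ranked 102 in scKO and 73 in flox/flox among genes with an FPKM above 0. Srm, at the other end, ranked 5455 and 5432, and its level was 83.7-fold below that of Amd1 in scKO and 122-fold below it in flox/flox.

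**Figure D1:**
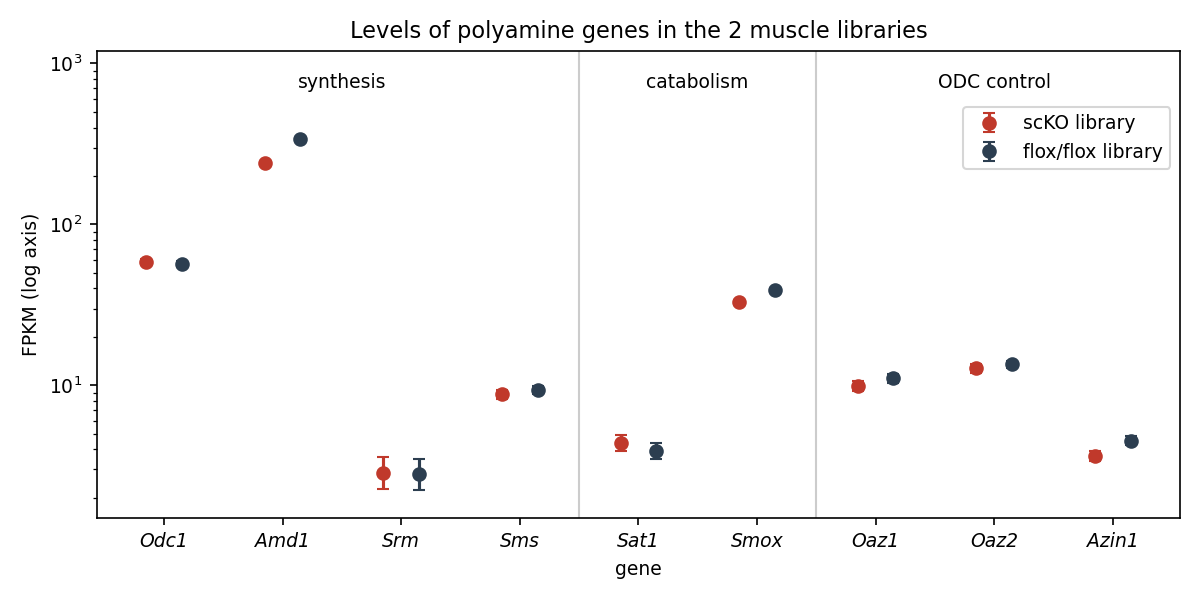
Level of each polyamine gene in FPKM (log axis) in the scKO library (red) and the flox/flox library (dark), by role. Points are the deposited values of the single libraries and bars are 95% Poisson intervals for counting error; Amd1 stands highest in both, at 240 and 341 FPKM.

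Of the 9 genes, 4 had a ratio interval wholly below 0 and so were lower in scKO beyond counting error: Amd1, Smox, Oaz1 and Azin1. No interval was wholly above 0. Over all 12662 tested genes, 12.3% had intervals below 0 and 12.8% above. Among the 8586 tested genes with summed counts in the range of the 9, from 157 to 26743, these shares were 13.5% and 15.4%. Intervals narrow as counts rise, so these shares are not those at the counts of Amd1 (26743) or Smox (9145). Among genes within 2-fold of their summed counts, the lower quartile of log2 ratios was -0.10 for Amd1 and -0.079 for Smox. The share of intervals below 0 at such counts was not computed. None of the 9 was 2-fold apart, against 1.49% of all tested genes that were higher by 2-fold or more in scKO and 1.91% that were lower by as much. In the count range of the 9, these shares were 0.524% and 0.652%, so that 0 of 9 does not set the genes apart. Their log2 ratios ran from -0.55 to 0.12 with a median of -0.13, beside a median of 0.0021 over all tested genes. With 1 library a group, these counts describe the libraries and were not tested.

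**Figure D2:**
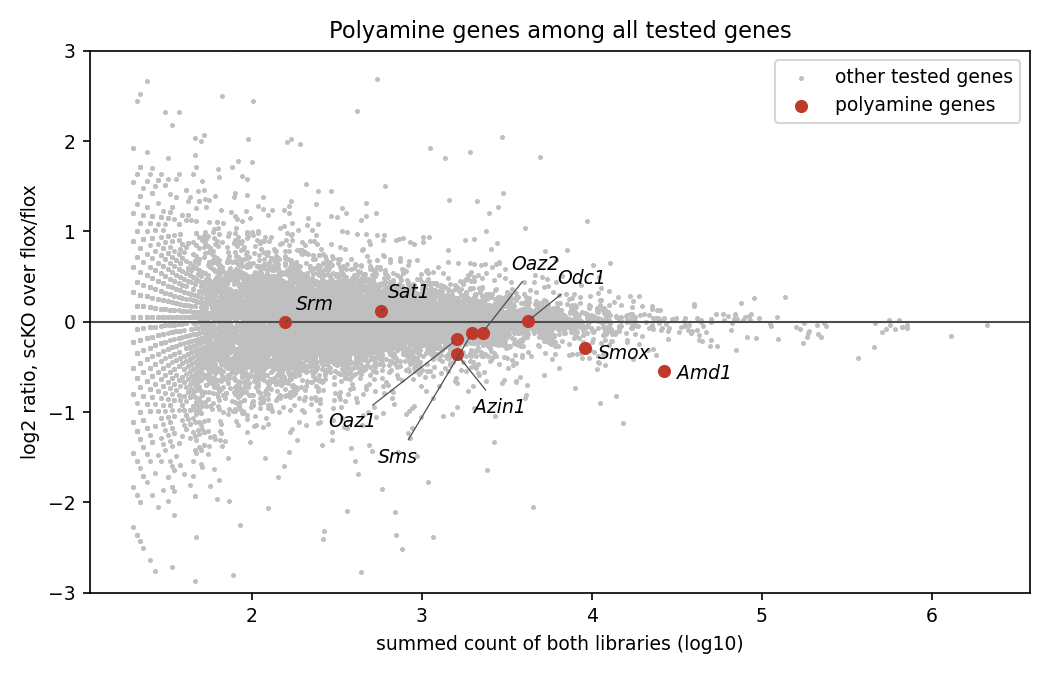
Log2 ratio of scKO over flox/flox against the summed count of both libraries (log10) for all tested genes (grey) and the 9 polyamine genes (red); 30 genes lie outside the vertical range. Among genes within 2-fold of its summed count, 3 of 107 were as low as Amd1 (-0.55) or lower, Amd1 included. The same numbers were 25 of 458 for Smox (-0.29) and 118 of 2631 for Azin1 (-0.36).

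Among the enzymes of synthesis, Amd1 had the largest difference and the only interval that excluded 0; that of Sms also did under 2 other scalings. Amd1 (ENSMUSG00000075232, minus strand of chromosome 10, 40287458 to 40302186) had 10647 counts in scKO and 16096 in flox/flox. This is 1.46-fold lower in scKO, and the log2 ratio was -0.55 (-0.58 to -0.51). Of 107 tested genes with a summed count within 2-fold of that of Amd1, 3 had a ratio as low or lower, Amd1 included. This rank describes the libraries, in which each gene has a single ratio.

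The copies of Amd1 stood on the same side. Amd-ps3 had 2915 counts in scKO and 5018 in flox/flox (log2 ratio -0.73, -0.80 to -0.67). Amd2 had 728 and 1028 counts (-0.45, -0.59 to -0.31), and Amd-ps1 had 877 and 1253 (-0.46, -0.59 to -0.34). The remaining copies in the table, Amd-ps4, Amd-ps5 and Gm42818, had 33 counts or fewer in either library. Summed with its 6 copies, Amd1 had 15208 counts in scKO and 23450 in flox/flox, a log2 ratio of -0.57 (-0.60 to -0.54). Amd1 itself made up 70.0% of that sum in scKO and 68.6% in flox/flox. Amd-ps3 was lower relative to Amd1 as well, with 0.274 counts for each Amd1 count in scKO and 0.312 in flox/flox. The log2 odds ratio of this pair was -0.19 (-0.26 to -0.11). For Amd2 against Amd1 (0.098, -0.045 to 0.24) and Amd-ps1 against Amd1 (0.082, -0.050 to 0.21), the intervals included 0. All intervals between Amd1 and a copy, that of Amd-ps3 included, take their counts as separate, as does the interval of the sum. A read counted for more than 1 of these genes would make the interval of the sum too narrow. How reads that match Amd1 and a copy were counted is not given in the sources used here.

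The other enzymes of synthesis stood closer together in the libraries. Odc1 (ENSMUSG00000011179, plus strand of chromosome 12, 17544794 to 17551505) had 2065 counts in scKO and 2129 in flox/flox, a log2 ratio of 0.0071 (-0.081 to 0.095). Odc1 lies on the same chromosome as Cipc. The only one of its 11 annotated copies listed in the table, Gm15645, had 0 counts in both libraries. Sms (ENSMUSG00000071708, minus strand of chromosome X, 157443855 to 157492287) had 923 and 1045 counts, with a ratio of -0.13 (-0.26 to 0.0012) whose interval only just reached 0. Srm (ENSMUSG00000006442, plus strand of chromosome 4, 148591503 to 148594993) had 77 and 80 counts, and its interval was too wide to show a difference of the size seen for Smox (-0.0040, -0.47 to 0.47).

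Of the enzymes of breakdown, Smox was lower in scKO and Sat1 did not leave 0. Smox (ENSMUSG00000027333, plus strand of chromosome 2, 131491496 to 131525922) had 4031 counts in scKO and 5114 in flox/flox, 1.22-fold lower with a log2 ratio of -0.29 (-0.35 to -0.23). Of 458 tested genes with a summed count within 2-fold of that of Smox, 25 had a ratio as low or lower, Smox included. No near-identical copy of Smox was found among the annotated transcripts. Sat1 (ENSMUSG00000025283, minus strand of chromosome X, 155213132 to 155216449) had 296 and 282 counts, with a ratio of 0.12 (-0.12 to 0.36).

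All 3 genes that control ornithine decarboxylase had ratios below 0, and 2 of the 3 intervals excluded it. Azin1 (ENSMUSG00000037458, minus strand of chromosome 15, 38487427 to 38519266) had 690 counts in scKO and 917 in flox/flox, 1.28-fold lower with a log2 ratio of -0.36 (-0.50 to -0.22). Its exons share 358 bases with the antisense gene Gm49077, which was not analysed here. Oaz1 (ENSMUSG00000035242, plus strand of chromosome 10, 80826656 to 80829290) had 737 and 874 counts, a ratio of -0.19 (-0.34 to -0.052). Of genes with a summed count within 2-fold of their own, 118 of 2631 had a ratio as low as that of Azin1 or lower, and 317 of 2630 as low as that of Oaz1 or lower. Oaz2 (ENSMUSG00000040652, plus strand of chromosome 9, 65668001 to 65690300) had 1070 and 1204 counts, a ratio of -0.12 (-0.24 to 0.00093).

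The antizyme copies carried a large part of the antizyme counts. Oaz1-ps, the intronless copy with the same frameshift window, had 1065 counts in scKO and 1228 in flox/flox, more than Oaz1 itself in either. Its ratio was -0.15 (-0.27 to -0.035). Oaz1 thus made up 40.9% of the pair's summed counts in scKO and 41.6% in flox/flox, and the sum stood at -0.17 (-0.26 to -0.080). That interval takes the counts of gene and copy as separate and is too narrow if reads were counted for both. The share of the counts of Oaz1 and Oaz1-ps that belong to the gene cannot be read from the table, so the level of Oaz1 is uncertain; the log2 odds ratio of the copy to the gene was 0.041 (-0.15 to 0.23). Oaz2-ps had 102 and 108 counts (-0.031, -0.44 to 0.37), and Oaz2 held 91.3% and 91.8% of its own pair.

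**Figure D3:**
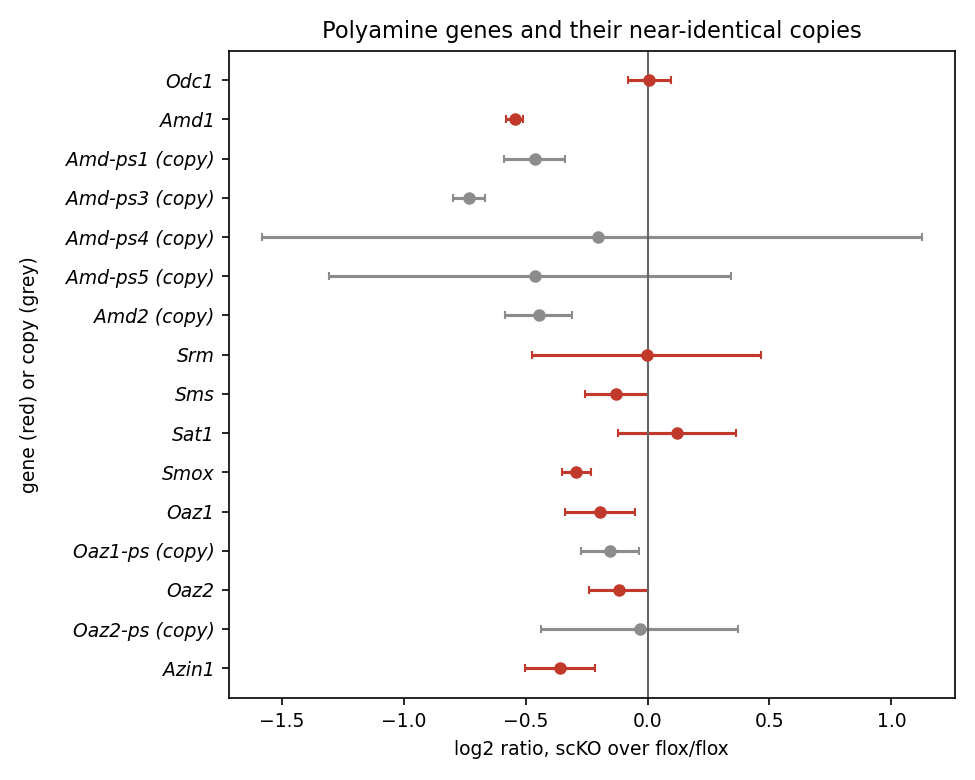
Log2 ratio of scKO over flox/flox (horizontal axis) for the 9 polyamine genes (red) and their near-identical copies with at least 20 summed counts (grey); bars are 95% intervals for counting error. The copies of Amd1 lie left of 0 with it, from -0.20 for Amd-ps4 to -0.73 for Amd-ps3, with intervals that include 0 for Amd-ps4 and Amd-ps5, while Odc1 sits at 0.0071.

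Ratios between members need no library scaling, since each pair is read within a library, and 8 pairs were compared. Odc1 RNA was higher relative to Amd1 in scKO, with 0.244 FPKM of Odc1 for each FPKM of Amd1 in scKO and 0.166 in flox/flox. The log2 odds ratio of their counts was 0.55 (0.46 to 0.65). Odc1 was also higher in scKO relative to Azin1 and Oaz1. Relative to Azin1 its FPKM was 16.1-fold in scKO and 12.5-fold in flox/flox (log2 odds ratio 0.37, 0.20 to 0.54). Relative to Oaz1 the log2 odds ratio was 0.20 (0.033 to 0.37). No FPKM ratio is given for that pair, since the level of Oaz1 depends on the split of reads with Oaz1-ps. The FPKM ratio of Odc1 to Amd1 likewise depends on the split of reads between Amd1 and its copies. Every FPKM ratio between genes also rests on the lengths behind FPKM, which were not checked for each gene. Among the pairs of regulators compared, both intervals included 0. The log2 odds ratio was 0.16 (-0.040 to 0.37) for Oaz1 to Azin1 and -0.076 (-0.26 to 0.11) for Oaz1 to Oaz2. Between the enzymes of breakdown, Smox was lower relative to Sat1, at 7.50-fold its FPKM in scKO and 9.98-fold in flox/flox (-0.41, -0.66 to -0.17). For Amd1 to Srm the log2 odds ratio was -0.54 (-1.01 to -0.069). For Srm to Sms it was 0.12 (-0.37 to 0.61).

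Promoter sequences from RefSeq (GRCm38.p6) were given for 7 of the 9 genes, in 8 windows that run from 250 bases before to 50 after a start site. They were searched on both strands for the E-box CACGTG, which CLOCK-BMAL1 and MYC can bind, and for the GC box GGGCGG or its reverse complement CCGCCC, which Sp factors can bind. Overlapping matches were each counted, and the single E-box shared no base with a GC box. The E-box was present in 1 window, the upstream one of Sms, beginning 196 bases before the start. Of all 32851 promoter windows in the reference, 7.15% held it. A GC box was present in 6 of the 8 windows, against 35.7% of all windows, and was missing from that of Oaz1 and from the upstream window of Sms. The share over all windows is not matched to these 8 in GC content or in expression in muscle. The promoters of Amd1 and Smox, the best counted genes that were lower in scKO, and of Odc1, whose interval included 0, are printed with the GC boxes in capitals.
Amd1, minus strand, chr10:40302139-40302438: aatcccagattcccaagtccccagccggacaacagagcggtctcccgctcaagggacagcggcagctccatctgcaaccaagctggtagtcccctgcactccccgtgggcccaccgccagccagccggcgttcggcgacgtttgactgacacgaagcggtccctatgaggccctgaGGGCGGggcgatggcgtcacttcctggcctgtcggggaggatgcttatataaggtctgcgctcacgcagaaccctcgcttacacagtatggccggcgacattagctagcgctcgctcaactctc
Smox, plus strand, chr2:131491612-131491911: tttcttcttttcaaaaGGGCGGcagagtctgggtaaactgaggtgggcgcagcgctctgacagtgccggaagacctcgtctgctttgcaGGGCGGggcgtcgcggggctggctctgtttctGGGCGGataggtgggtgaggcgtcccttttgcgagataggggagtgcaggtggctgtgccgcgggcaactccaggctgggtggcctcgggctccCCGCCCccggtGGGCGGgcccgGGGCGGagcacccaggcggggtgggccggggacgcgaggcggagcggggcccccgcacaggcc
Odc1, plus strand, chr12:17544623-17544922: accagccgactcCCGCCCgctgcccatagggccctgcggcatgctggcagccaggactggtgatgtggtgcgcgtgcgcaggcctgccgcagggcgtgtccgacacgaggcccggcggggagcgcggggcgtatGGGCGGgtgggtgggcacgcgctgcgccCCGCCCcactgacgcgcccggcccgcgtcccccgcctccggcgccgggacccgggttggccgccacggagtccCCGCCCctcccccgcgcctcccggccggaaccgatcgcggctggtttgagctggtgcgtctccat
The Smox window held 6 GC boxes, the Odc1 window 4 and the Amd1 window 1. Of the windows not printed, that of Oaz1, which was lower in scKO, held 0. Those of genes whose intervals included 0 held 2 (Sat1), 4 (Oaz2) and 4 (the downstream window of Sms). Whether the motif bears on the ratios was not tested. A match says only that the letters are there.

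Beyond the 9 genes, 39 others of polyamine metabolism, its precursors, transport and regulation were listed. Of these, 30 had at least 20 summed counts, with 7 intervals above 0, 4 below and 19 that included it. The median log2 ratio of the 30 was 0.084. Over all tested genes the shares were 12.8% above and 12.3% below. None of the 30 was 2-fold apart with an interval that excluded 0.

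The supply of S-adenosylmethionine held the largest ratio above 0. Mat2a, the catalytic subunit of the methionine adenosyltransferase that makes S-adenosylmethionine, the substrate of Amd1, had 4462 counts in scKO and 2669 in flox/flox. It was 1.73-fold higher in scKO (log2 ratio 0.79, 0.72 to 0.86), on the opposite side from Amd1. Mat2b, its regulatory subunit, had 622 and 691 counts (-0.10, -0.26 to 0.058). Oat, the mitochondrial aminotransferase that consumes or forms ornithine, had 2489 and 2457 counts (0.070, -0.011 to 0.15). Arg1 and Arg2, the arginases that release ornithine from arginine, had 0 counts in both libraries, which allows up to 0.214 CPM in scKO and 0.206 CPM in flox/flox. Slc7a2, a carrier of arginine and ornithine, was higher in scKO, with 1412 and 1185 counts (0.30, 0.19 to 0.42).

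Genes that recycle, use or move polyamines stood on both sides of 0. Adi1, of the salvage of the methylthioadenosine that Srm and Sms release, had 656 counts in scKO and 806 in flox/flox (-0.25, -0.40 to -0.095). The other 4 genes of that salvage route had positive ratios whose intervals included 0. Eif5a, the translation factor whose hypusine is made from spermidine, had 2925 and 2772 counts (0.13, 0.053 to 0.20). The enzymes of that modification, Dhps (0.083, -0.22 to 0.39) and Dohh (0.15, -0.082 to 0.38), had intervals that included 0. The lysosomal polyamine exporter Atp13a2 stood at 0.26 (0.044 to 0.47). Slc18b1, a vesicular polyamine carrier, had 50 and 31 counts (0.73, 0.066 to 1.44).

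The closest kin of the members were scarce apart from Amd2. Paox, the peroxisomal oxidase of acetylated polyamines, had 18 counts in scKO and 11 in flox/flox (0.74, -0.40 to 1.99). Sat2 had 35 and 46 counts (-0.34, -1.02 to 0.32) and the antizyme inhibitor Azin2 24 and 36 (-0.52, -1.34 to 0.25). Oaz3, the testis antizyme, and Satl1 had 0 in both. Counts of this size could not show a difference as small as those of Smox or Azin1.

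Among the tested regulators, Mxd4 stood farthest from 0. Mxd4, a repressor that pairs with MAX in competition with MYC, had 302 counts in scKO and 596 in flox/flox, 1.90-fold lower (-0.93, -1.13 to -0.73). Myc itself, an activator of Odc1 in mammalian cells, had 69 and 101 counts (-0.50, -0.96 to -0.043), and Max had 315 and 268 (0.28, 0.045 to 0.52). Nfe2l2 (NRF2) stood at 0.15 (0.011 to 0.28).

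**Figure D4:**
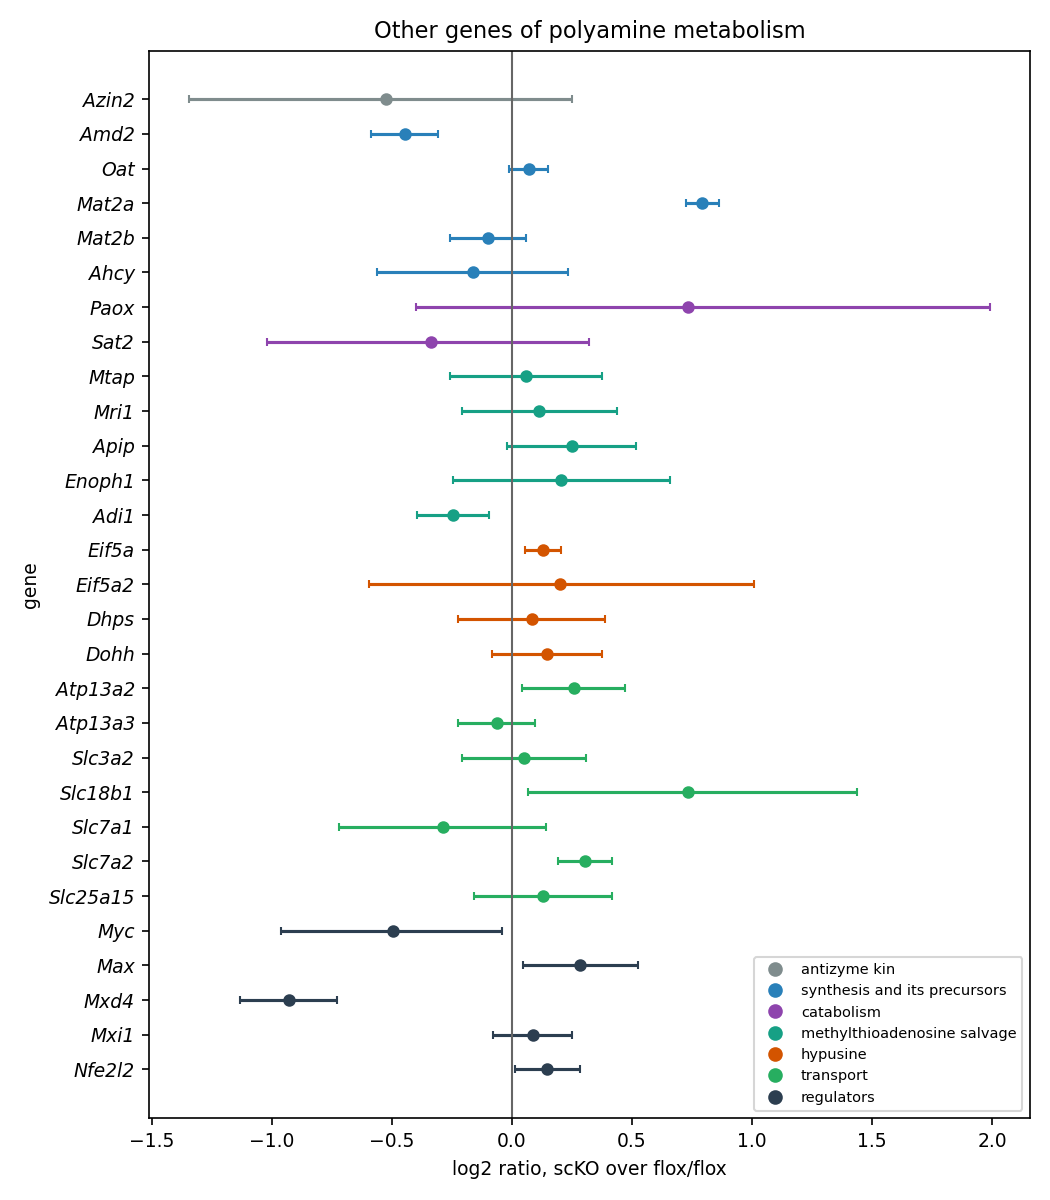
Log2 ratio of scKO over flox/flox (horizontal axis) for 29 of the 30 tested genes of polyamine metabolism beyond the 9, coloured by role; bars are 95% intervals for counting error. Mat2a lies farthest right of the well counted genes at 0.79, and Mxd4 farthest left at -0.93.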

How the data were processed

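RNA of whole gastrocnemius was sequenced in 1 scKO and 1 flox/flox library. The authors deposited raw whole-number counts per Ensembl gene and, per the file headers, FPKM values for each library. The submitters' processing notes list CASAVA, HISAT2 (version 2.0.4), StringTie (version 1.3.0) and the build GRCm38; counting options, strand setting and the handling of reads that match several genes are not given in the sources used here. Lengths implied by the deposited FPKM and counts differed between libraries by at most 0.0041% over 11214 genes. FPKM thus holds the same measurement as the counts, divided by the same length in both libraries. Agreement between libraries does not show that the lengths are right, and those implied for Oaz1, Sat1 and the copy Amd-ps3 exceed the spans of the genes.

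The 34745 identifiers were matched to symbols for 34267. Counts were scaled with TMM (edgeR 4.0.16, R 4.3.3). Log2 ratios used a prior count of 0.5, proportional to library size. Exact conditional (Clopper-Pearson) 95% intervals cover counting error only, as do limits for 0 counts (3 counts), and leave out PCR duplication and variation between animals. A gene was tested at a summed count of at least 20. With no residual degrees of freedom, no dispersion, p-value or count model test was computed. Pair ratios are conditional odds ratios of counts. Near-identical copies are GENCODE M21 transcripts aligned on the sense strand to a member over at least 400 bases at 90% identity or more (BLAST 2.17.0). Identity counts over the Amd1 coding sequence came from global alignment (Biopython 1.88). Python 3.11.15 with numpy 2.4.6, scipy 1.17.1, pandas 2.3.3 and matplotlib 3.10.9 was used.

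The members and lists were chosen with earlier results of these data known. All members are named; from the other polyamine genes, those whose interval excludes 0 and whose larger count is 50 or more are named, and the closest kin whatever their values. Other list members and the copies were named after their values were seen. Alternatives were other scalings (DESeq2 size factors, total counts, upper quartile, TMM without mitochondrial genes), a prior count of 5, count minimums of 100 and 1, and FPKM with pseudocounts of 0.1 and 1. The result of 1 list member is not reported here. A planned comparison of protein sequences is not given here.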

Additional observations from a re-analysis of the deposited data

How the results depend on the processing

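Scaling decided 2 of the calls among the 9 genes. With DESeq2 1.42.0 size factors or upper quartile scaling, Sms and Oaz2 also had intervals below 0, which makes 6 of 9 in place of 4; with total counts the number was 4. None had an interval above 0 under any alternative that gives intervals. The prior count does not enter the intervals and the count minimums keep all 9 genes, so only the scalings could change these calls. The median log2 ratio of the 9 ran from -0.14 to -0.081 over 9 alternatives. Odc1 ran from -0.0024 to 0.045 and Srm from -0.013 to 0.034, so the sign of either depends on the scaling. Amd1 ran from -0.55 to -0.51, Smox from -0.30 to -0.25, Azin1 from -0.37 to -0.26 and Oaz1 from -0.20 to -0.14. In the other polyamine genes, 6 to 9 intervals lay above 0 and 4 below; Oat and Apip joined those above with total counts. With a pseudocount of 1 on FPKM, Mxd4 stood at -0.66 and Myc at -0.17. Adding the copies to Amd1, Oaz1 and Oaz2, an alternative chosen after seeing the data, left the number below 0 at 4. The median stayed at -0.13, which is the ratio of Sms, a gene to which no copy was added. The FPKM alternatives give no counting interval and so no calls. No paired analysis was possible because each genotype has 1 library, which also leaves no replicate to omit. Srm, with 77 and 80 counts, is limited by depth.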
